A study of Mus musculus with 69 samples.

Results

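Eicosanoids are short-lived lipid signals that cells make from arachidonic acid, and the genes described here encode proteins that build the main leukotrienes and prostaglandins or inactivate prostaglandins. The 10 genes (Alox5, Alox5ap, Alox15, Ptgs1, Ptgs2, Ptges, Ltc4s, Lta4h, Hpgds and Hpgd) were taken from the tables by symbol. All 10 were found among the 24537 genes listed in each of 3 expression tables of mouse bone marrow-derived macrophages (BMDMs), and among the 24527 genes of both tables of allele values from F1 hybrid BMDMs. In the leukotriene branch, Alox5 (5-lipoxygenase), helped by the membrane protein Alox5ap, turns arachidonic acid into leukotriene A4. Lta4h hydrolyses leukotriene A4 to leukotriene B4, which attracts neutrophils, and Ltc4s joins it to glutathione to give leukotriene C4. In the prostaglandin branch, the cyclooxygenases Ptgs1 (COX-1) and Ptgs2 (COX-2, usually induced by inflammatory signals) make prostaglandin H2. Ptges turns prostaglandin H2 into prostaglandin E2, Hpgds turns it into prostaglandin D2, and Hpgd inactivates finished prostaglandins. Alox15 oxidises arachidonic acid at other carbons and is known in mice from eosinophils and resident peritoneal macrophages.

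The study asked how natural genetic variation shapes the macrophage response to IL-4 (interleukin-4), a T cell cytokine that signals through STAT6 and drives alternative activation. BMDMs grown with M-CSF from adult female mice aged 8 to 12 weeks were left untreated (basal) or given IL-4 at 20 ng/ml, and polyA RNA was sequenced. In the strain set, SPRET/EiJ (SPRET), C57BL/6J (C57), PWK/PhJ (PWK), BALB/cJ (BALB) and NOD/ShiLtJ (NOD) cells were compared basal and after 24 h of IL-4, with 3 libraries a group but 2 for basal PWK. The time course covered C57 and SPRET at 0, 1, 6 and 24 h of IL-4 with 2 libraries a group. The Egr2 set covered the same times, again with 2 libraries a group, in Egr2WT cells (Egr2 fl/fl, which carry the floxed gene without Cre) and Egr2MKO cells (LyzM-Cre Egr2 fl/fl, where a Cre driven by the lysozyme M gene deletes Egr2 in myeloid cells). F1 hybrids of C57 with SPRET and of C57 with NOD gave 2 basal and 2 IL-4 libraries each. The study's methods call the library replicates biological, and the labels number them without saying which mouse each came from, so p-values measure the spread between these libraries.

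Levels are given in TPM, a share of all transcripts that corrects for sequencing depth and gene length, so levels of different genes can be compared. A difference is on the log2(TPM + 1) scale with its standard error (±) from limma, and a gene was called when its p-value, adjusted over all genes tested by Benjamini-Hochberg, was under 0.05 and the change was over 2-fold. Tested genes reached 1 TPM in at least 2 libraries of a set, which left 8 members in the strain set and the time course (all but Alox15 and Hpgd) and all 10 in the Egr2 set. The reads behind the TPM values, recovered from their steps, came to 6784096 to 21492857 a library in the strain set and 5069602 to 21434910 in the time course. In the Egr2 set they came to 1777358 to 15921008, and the read totals in that table's headers do not go with its columns, at 0.111 to 3.23 recovered reads per read in the header. All 6 macrophage markers checked (among them Csf1r and Adgre1) reached 1 TPM in every set, with summed levels of 9308 to 53701 TPM. In the strain set, the summed level of 7 neutrophil markers (5 of which reached 1 TPM) was highest in the PWK libraries, at up to 598 TPM, with a median of 59.97 TPM over all 29 libraries. The summed level of 4 fibroblast markers (2 reaching 1 TPM) was highest in basal PWK, at up to 210 TPM, with a median of 5.26 TPM. Of 7 mast cell and basophil markers, 1, 3 and 2 reached 1 TPM in the strain set, the time course and the Egr2 set. Their sum was highest in a SPRET library in the strain set (9.39 TPM, median 0.96) and in the time course (22.6 TPM, median 6.46). In the Egr2 set it was at most 4.35 TPM. Their part in the SPRET values was not tested. Eosinophil markers summed to at most 2.44 TPM, dendritic cell markers to at most 7.83 TPM, and no B or T cell marker reached 1 TPM. In bulk RNA, fewer cells of a type and less RNA per cell cannot be told apart.

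The promoters of Ptgs1, Ptgs2 and Ptges are shown because the results turn on these 3 genes. Each line gives the 250 bases before the RefSeq start site on the GRCm38.p6 build, read along the gene's strand. They lie at chr2:36230176-36230425 on the plus strand for Ptgs1, chr1:150099781-150100030 on the plus strand for Ptgs2 and chr2:30903298-30903547 on the minus strand for Ptges. Capitals mark matches, on either strand, to letters that EGR factors are known to favour (GTGGGCG and GCGTGGG, which overlap in a full EGR site) and to the paired half-sites of STAT6 (TTCNNNNGAA) and of other STAT factors (TTCNNNGAA).
Ptgs1: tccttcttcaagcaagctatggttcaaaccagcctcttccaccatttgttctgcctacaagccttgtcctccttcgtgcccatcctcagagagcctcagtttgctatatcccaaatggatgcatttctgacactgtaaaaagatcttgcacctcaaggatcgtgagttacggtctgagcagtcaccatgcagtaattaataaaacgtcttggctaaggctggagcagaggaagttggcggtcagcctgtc
Ptgs2: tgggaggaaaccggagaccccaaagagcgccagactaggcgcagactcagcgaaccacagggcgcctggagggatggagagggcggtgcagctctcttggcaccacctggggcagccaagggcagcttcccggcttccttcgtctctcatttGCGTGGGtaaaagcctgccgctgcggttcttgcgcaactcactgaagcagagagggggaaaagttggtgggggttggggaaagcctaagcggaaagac
Ptges: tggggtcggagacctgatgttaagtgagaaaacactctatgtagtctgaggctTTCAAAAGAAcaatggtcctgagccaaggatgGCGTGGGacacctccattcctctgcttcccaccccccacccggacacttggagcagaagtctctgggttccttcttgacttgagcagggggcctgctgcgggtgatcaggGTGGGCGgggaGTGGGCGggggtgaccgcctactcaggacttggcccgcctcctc
Of the 32851 RefSeq promoters of this length, 7.02% held GTGGGCG, 4.30% GCGTGGG, 5.85% TTCNNNNGAA and 7.02% TTCNNNGAA. The Ptges window held 2 matches to GTGGGCG, 1 to GCGTGGG and 1 to TTCNNNNGAA, the Ptgs2 window 1 to GCGTGGG, and the Ptgs1 window none. RefSeq promoters were at hand for 8 of the 10 members, and of the other five only Hpgd held a match, 1 to GTGGGCG. A match is a stretch of letters, not a measured binding site.

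In the strain set, Ptgs2 and Alox5 had the widest spans of basal strain means (404-fold and 150-fold by ratio), followed by Ptgs1 (13.1-fold) and Ptges (12.8-fold). NOD macrophages had over 10 times less Ptgs1 than C57 and far more Ptgs2 and Ptges, SPRET macrophages had almost no Ptgs2, and with IL-4 Ptges fell in all 5 strains while Ptgs1 was higher in all 5 and past 2-fold in all but SPRET. At basal state 2, 5, 3 and 5 of 8 tested members were called between BALB, NOD, PWK or SPRET and C57, against 4.81%, 16.9%, 13.3% and 18.1% of all genes tested. For 24 h of IL-4 against basal, 3, 2, 2, 4 and 4 were called in C57, BALB, NOD, PWK and SPRET, against 3.8%, 2.08%, 1.19%, 2.08% and 3.94% of all genes. After IL-4, 0, 4, 3 and 4 were called between the other strains in the same order and C57, against 5.39%, 13.2%, 12.2% and 20.6%. The 0 for BALB is limma's call at 2-fold, and 5 members passed the adjusted p there by smaller changes (5 also at an unadjusted p under 0.05). The response to IL-4 itself differed from that of C57 for 2 members in each of the other strains, against 1.49%, 2.47%, 2.26% and 3.45% of all genes in BALB, NOD, PWK and SPRET. The comparisons with C57 share its libraries. The median difference of the 8 members lay between -0.52 (SPRET) and -0.05 (PWK) for IL-4 against basal, where that of all genes lay between -0.11 and 0.12, and members were called in both directions in each strain.

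**Figure D1:**
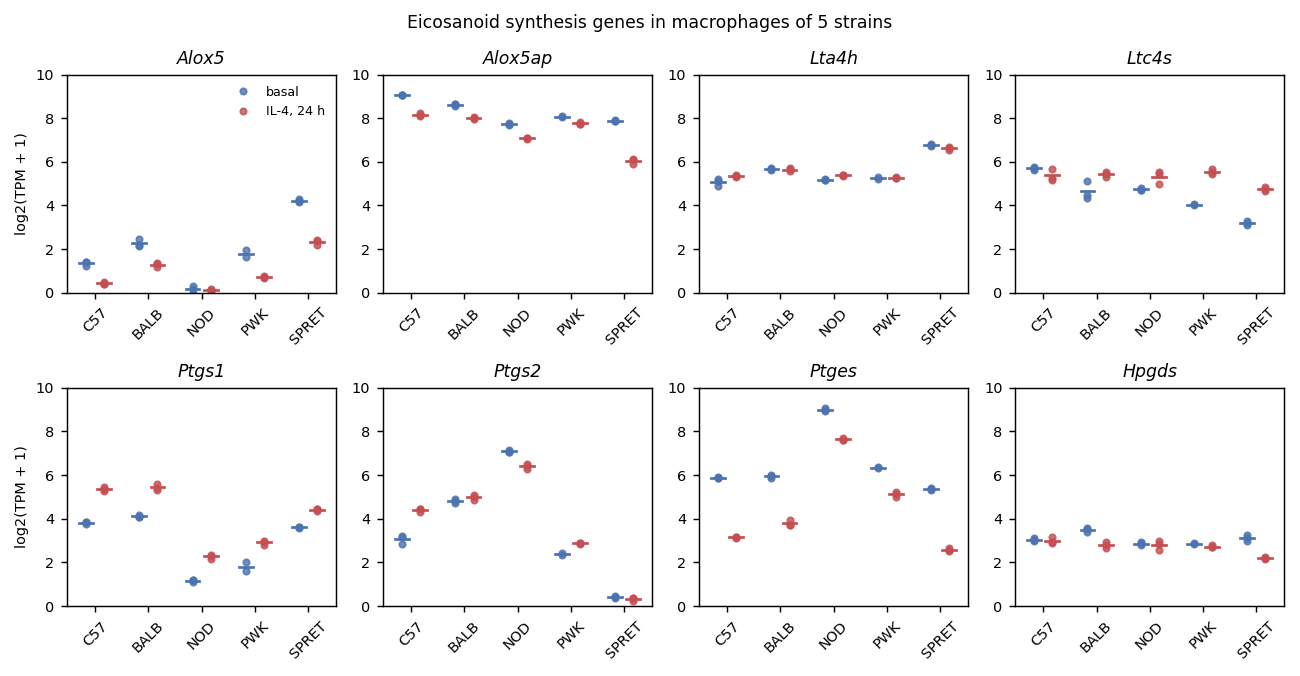
Levels of the members in the strain set, one panel a gene, with each point a library on the log2(TPM + 1) axis by strain and condition. Ptgs2 and Ptges stand highest in NOD, Ptgs2 lies near 0 in SPRET, and Ptges is lower after IL-4 in every strain.

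Ptgs1 (chromosome 2, 36230426 to 36252271, plus strand, mm10) was low in NOD and PWK. In basal cells it measured 13.2, 13.6 and 12.5 TPM in C57. It measured 15.8, 16.1 and 17.1 TPM in BALB and 11.2, 11.1 and 11.4 TPM in SPRET. It measured only 1.299, 1.27 and 1.16 TPM in NOD and 2.01 and 3.04 TPM in PWK. The NOD and PWK libraries thus lay below all others, with a difference from C57 of -2.65 ± 0.09, adjusted p = 6.2e-19 (NOD) and -2.02 ± 0.10, adjusted p = 2e-15 (PWK). After IL-4 every strain had more Ptgs1. It reached 42.5, 40.7 and 37.7 TPM in C57 (1.55 ± 0.09, adjusted p = 1.1e-13). It reached 4.14, 3.48 and 3.98 TPM in NOD (1.12 ± 0.09, adjusted p = 2.8e-10). The IL-4-treated NOD libraries still lay below untreated C57, and under quantile normalization the NOD change was 0.998, just under 2-fold. BALB and PWK rose by 1.33 and 1.12 (adjusted p = 4.9e-12 and 1.4e-09). In SPRET the change was under 2-fold, at 0.81 ± 0.09, adjusted p = 2.3e-08, with 20.6, 19.5 and 21.1 TPM after IL-4. The C57 and BALB levels after IL-4 did not differ beyond their spread (adjusted p = 0.5), whereas all other neighbours in the order of levels differed past the adjusted p.

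Ptgs2 (chromosome 1, 150100031 to 150108234, plus strand, mm10) had the widest span between strains, 404-fold between the NOD and SPRET basal means. Basal NOD cells held 134, 130.4 and 141 TPM. Basal C57 cells held 8.28, 6.19 and 7.96 TPM, so every NOD library lay far above them (4.02 ± 0.08, adjusted p = 1.2e-22). Basal BALB cells held 29, 25.8 and 27.1 TPM, also above C57 (1.75 ± 0.08, adjusted p = 7.3e-15). PWK cells held 4.107 and 4.404 TPM, less than C57 by under 2-fold (-0.68 ± 0.09, adjusted p = 8.2e-07). In SPRET, 0.389, 0.321 and 0.295 TPM were measured, below all other strains (-2.66 ± 0.08, adjusted p = 2e-19 against C57). These SPRET values rest on 14 to 25 recovered reads a library. IL-4 moved Ptgs2 differently by strain. In C57 it rose to 20.8, 20.9 and 19.05 TPM (1.33 ± 0.08, adjusted p = 1.6e-12), the one call of an IL-4 effect on Ptgs2 among the strains. In NOD it was lower after IL-4 by under 2-fold, at 91.1, 76.7 and 85.5 TPM (-0.68 ± 0.08, adjusted p = 1.1e-06). BALB (30.8, 27.95 and 33.6 TPM after IL-4) and SPRET (0.307, 0.173 and 0.296 TPM) overlapped or lay next to their basal libraries, with adjusted p = 0.13 and 0.44. PWK gained under 2-fold (0.48 ± 0.09, adjusted p = 0.00035). Tested directly, the response of Ptgs2 minus that in C57 was -1.17 in BALB (adjusted p = 1.1e-07), -2.01 in NOD (adjusted p = 2.9e-12) and -1.42 in SPRET (adjusted p = 1.1e-09).

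Because TPM is per length, the share of cyclooxygenase transcripts that came from Ptgs1 could be read in each library. It was 0.813% to 0.967% in basal NOD and 4.34% to 4.44% in NOD after IL-4. In C57 of the strain set it was 61.1% to 68.8% basal and 66.1% to 67.2% after IL-4. C57 of the time course stood higher, at 92.35% and 92.38% at 0 h and 85.1% and 84.3% at 24 h. The gap between the sets was not tested. In BALB the share went from 35.2% to 38.7% basal to 55.6% to 60.3% after IL-4. In PWK it went from 32.8% and 40.9% to 49.4% to 51.8%. In SPRET it was above 96% in every library. NOD cells therefore carried cyclooxygenase message almost wholly as Ptgs2 and SPRET cells almost wholly as Ptgs1, in both conditions.

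Ptges (chromosome 2, 30889471 to 30903297, minus strand, mm10) is the prostaglandin E2 synthase shown above with EGR-type matches. It was far higher in NOD than in the other strains and fell with IL-4 in all 5 strains. Basal NOD cells held 496, 509.6 and 534 TPM and basal C57 cells 58.9, 57.3 and 57.9 TPM (3.12 ± 0.06, adjusted p = 3.1e-23). BALB (63.6, 56.6 and 61.6 TPM) did not differ from C57 beyond its spread (adjusted p = 0.47). Basal PWK was higher than C57, at 78.5 and 81.4 TPM, and basal SPRET lower, at 41.6, 39.1 and 39.7 TPM, both by under 2-fold. After IL-4 the C57 libraries fell to 7.997, 7.81 and 7.91 TPM (-2.73 ± 0.06, adjusted p = 3.2e-21). SPRET fell to 4.67, 4.86 and 5.23 TPM (-2.80 ± 0.06, adjusted p = 5.9e-22). BALB fell to 14.4, 12.05 and 12.01 TPM (-2.16 ± 0.06, adjusted p = 9.4e-19). No IL-4 library overlapped a basal library of its own strain. NOD fell less on the log scale, to 204, 197 and 193 TPM (-1.37 ± 0.06, adjusted p = 1.2e-14), and so did PWK, to 36.02, 31.03 and 34.2 TPM (-1.22 ± 0.07, adjusted p = 4.7e-13). The response minus that in C57 was 1.36 ± 0.09, adjusted p = 1.1e-11 in NOD and 1.51 ± 0.09, adjusted p = 9.3e-12 in PWK, a smaller fall in both. IL-4-treated NOD libraries thus still held more Ptges than any basal library of the other strains.

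Hpgds (chromosome 6, 65117293 to 65144730, minus strand, mm10), the prostaglandin D2 synthase, varied little between strains in basal cells. The basal strain means spanned 1.67-fold. The values ran from 6.32 and 6.104 TPM in PWK to 10.9, 10.6 and 9.53 TPM in BALB. SPRET went from 7.603, 8.53 and 6.79 TPM to 3.57, 3.5 and 3.702 TPM with IL-4. This was 2.13 times lower as a ratio of means, and under 2-fold on the log2(TPM + 1) scale (-0.91 ± 0.10, adjusted p = 3.5e-08). C57 did not change beyond its spread (-0.05 ± 0.10, adjusted p = 0.72). Hpgd (chromosome 8, 56294552 to 56321046, plus strand, mm10) stayed at or below 0.683 TPM in every library of the strain set and was listed at 0 in all 5 PWK libraries. Alox15 (chromosome 11, 70344147 to 70352031, minus strand, mm10) stayed at or below 0.085 TPM, so neither gene was tested there.

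In the leukotriene branch, SPRET stood apart with high Alox5 and Lta4h, the genes of leukotriene B4 synthesis, and low basal Ltc4s. Alox5 (chromosome 6, 116410071 to 116461178, minus strand, mm10) measured 17.3, 18.5 and 16.6 TPM in basal SPRET and 1.66, 1.36 and 1.65 TPM in basal C57 (2.85 ± 0.10, adjusted p = 4.4e-18). It measured 4.59, 3.49 and 3.48 TPM in BALB and 2.94 and 2.07 TPM in PWK. In NOD it was near 0, at 0, 0.24 and 0.11 TPM, which rest on 0 to 8 recovered reads. With IL-4 Alox5 fell in SPRET to 4.18, 4.31 and 3.499 TPM (-1.89 ± 0.10, adjusted p = 9.7e-14) and in PWK to 0.607, 0.642 and 0.718 TPM (-1.07 ± 0.12, adjusted p = 1.1e-07). C57 went to 0.334, 0.316 and 0.422 TPM and BALB to 1.25, 1.52 and 1.599 TPM, with no overlap with their basal libraries. As ratios of means Alox5 was 4.35 times lower in C57, 2.64 in BALB, 3.82 in PWK and 4.37 in SPRET. At these low levels the added 1 TPM puts C57 (-0.91 ± 0.10, adjusted p = 1.1e-07) and BALB (-0.98 ± 0.10, adjusted p = 6.2e-08) under 2-fold on the log2(TPM + 1) scale. The PWK call came to -0.89 without basal PWK replicate 1. Lta4h (chromosome 10, 93453396 to 93484896, plus strand, mm10) measured 105, 112 and 107 TPM in basal SPRET against 35.9, 28.95 and 34.2 TPM in C57 (1.69 ± 0.06, adjusted p = 1.2e-18). After IL-4 it was 93.6, 102 and 98.8 TPM in SPRET and 40.2, 39.1 and 40.8 TPM in C57 (1.27 ± 0.06, adjusted p = 4e-16), where the median of all genes lay at 0.18. No strain changed Lta4h by 2-fold with IL-4. The summed neutrophil markers also stood at 249 to 404 TPM in the SPRET libraries of this set, against 106 to 131 TPM in basal C57 and 16.7 to 24.3 TPM in C57 after IL-4. Their part in these differences was not tested.

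Alox5ap (chromosome 5, 149265004 to 149288153, plus strand, mm10) was the most abundant member in most libraries. It measured 539.7, 533 and 542 TPM in basal C57 and 242, 235 and 233 TPM in basal SPRET (-1.18 ± 0.05, adjusted p = 3e-17). SPRET then fell to 59.1, 67.4 and 69.1 TPM with IL-4 (-1.85 ± 0.05, adjusted p = 1.4e-20), and C57 went to 271, 282 and 299 TPM, a change of under 2-fold (-0.92 ± 0.05, adjusted p = 3e-14). Alox5 and its helper thus both fell in SPRET. Basal NOD (203, 215 and 215 TPM) and basal PWK (262 and 269 TPM) were called lower than C57 at -1.35 and -1.01. Those 2 calls depend on scaling, since the median of all genes lay at -0.30 in NOD and -0.16 in PWK against C57, and the differences came to -0.95 and -0.81, still past the adjusted p but under 2-fold, after median-ratio rescaling.

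Ltc4s (chromosome 11, 50236461 to 50238532, minus strand, mm10), which commits leukotriene A4 to the cysteinyl leukotrienes, responded differently by strain. In C57 it went from 51.8, 47.8 and 53.4 TPM to 37.8, 35.2 and 50.5 TPM, not past the test (-0.32 ± 0.15, adjusted p = 0.11). In PWK it rose from 15.8 and 15.2 TPM to 45.3, 49.98 and 42.6 TPM (1.51 ± 0.17, adjusted p = 1.8e-07). In SPRET it rose from 8.26, 7.68 and 8.65 TPM to 27.6, 26.2 and 23.9 TPM (1.55 ± 0.15, adjusted p = 6e-09). Neither rise had overlapping libraries. Tested directly, the response minus that of C57 was 1.83 ± 0.23, adjusted p = 1.6e-06 in PWK, 1.87 ± 0.21, adjusted p = 2.3e-07 in SPRET and 1.10 ± 0.21, adjusted p = 0.0008 in BALB. At basal state C57 stood above BALB and NOD, which stood above PWK. After IL-4 the libraries of all 4 lay within 30.3 to 50.5 TPM and their neighbouring means did not differ beyond their spread (adjusted p = 0.48 to 0.85). In PWK the summed neutrophil markers (546 to 598 TPM) were high in both conditions, and the summed fibroblast markers were 202 to 210 TPM basal and 105 to 112 TPM after IL-4. Their part in the PWK values was not tested. The BALB result depends on single libraries, since without either basal BALB replicate 1 or C57 IL-4 replicate 2 the difference in response was 0.95 or 0.996, just under 2-fold.

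By a fixed rule, the 3 genes whose 10 group means followed each of the 3 most variable members most closely were found. For Ptgs2 they were Mthfsl (Pearson r = 0.995), Grap (r = 0.989) and the chemokine gene Ccl4 (r = 0.973). For Ptges they were Adamts7 (r = 0.963), Rapgef5 (r = 0.937) and the cytokine gene Tnf (r = 0.936). For Ptgs1 they were Tnip3 (r = 0.971), Anxa1 (r = 0.964), whose protein can inhibit phospholipase A2, and Cotl1 (r = 0.963). These means come from the same 29 libraries, and the values are a description.

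The time course placed the changes in order. Ptgs2 was called at 1 h in C57, Ptgs1, Ptges and Alox5 were called at 6 h in both strains, and Alox5ap was called at 24 h in both. In C57, 1, 4 and 5 of 8 members were called at 1, 6 and 24 h against 0 h, against 0.877%, 2.13% and 5.76% of all genes. In SPRET, 0, 4 and 5 were called, against 1.89%, 4.57% and 5.62%. The 0 at 1 h in SPRET is limma's call at 2-fold, and 2 members passed the adjusted p by smaller changes (6 at an unadjusted p under 0.05). Between SPRET and C57, 4, 4, 4 and 6 members were called at 0, 1, 6 and 24 h, against 18.8%, 19.5%, 18.6% and 20.5% of all genes. The response differed between the strains for 1, 1 and 2 members at 1, 6 and 24 h, against 0.811%, 2.4% and 6.22%.

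**Figure D2:**
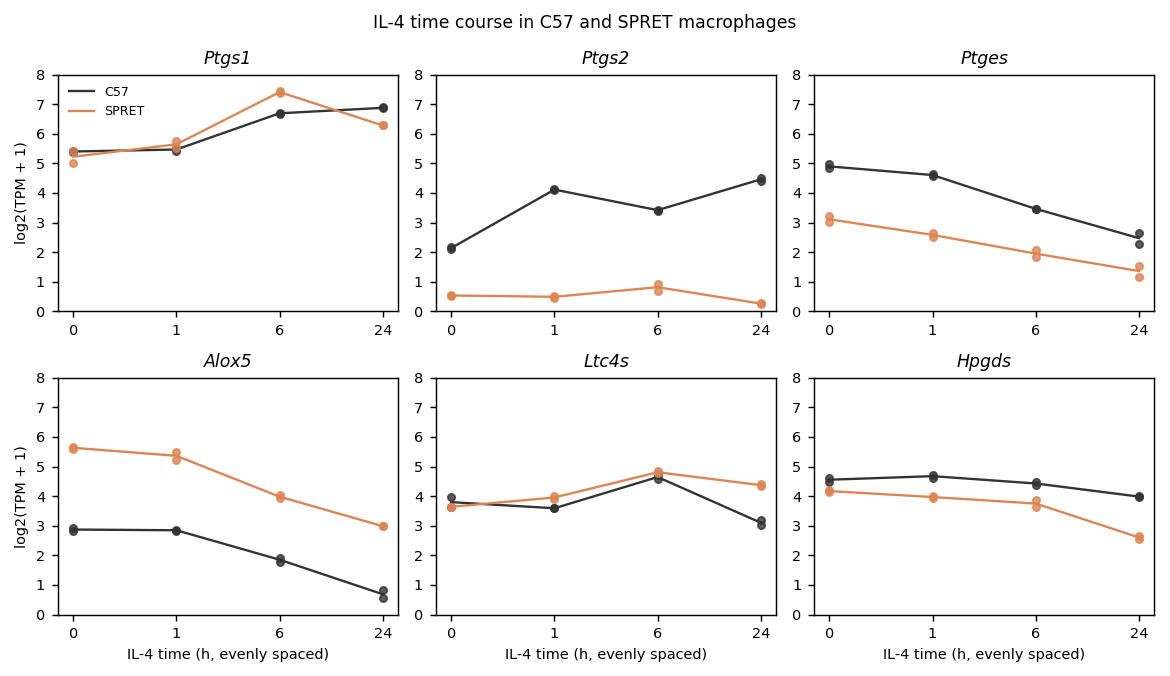
Levels of 6 members over the IL-4 time course in C57 and SPRET on the log2(TPM + 1) axis, with points for the 2 libraries of each group, lines through their means and the times 0, 1, 6 and 24 h evenly spaced. Ptgs2 rises in C57 by 1 h and stays near the axis in SPRET, while Alox5 and Ptges decline in both strains.

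Ptgs2 in C57 measured 3.35 and 3.47 TPM at 0 h and 16.1 and 16.5 TPM at 1 h (1.97 ± 0.11, adjusted p = 1.8e-07). It was 9.55 and 9.83 TPM at 6 h and 20.2 and 21.8 TPM at 24 h (2.32 ± 0.11, adjusted p = 5.8e-09 against 0 h). The course dipped at 6 h and rose again to 24 h (1.04 ± 0.11, adjusted p = 1.1e-05 against 6 h). SPRET stayed between 0.177 and 0.912 TPM at all times, on 6 to 25 recovered reads a library, and no time differed from 0 h past the test. The response in SPRET minus that in C57 was -2.02 ± 0.15, adjusted p = 1.4e-05 at 1 h, -1.0 ± 0.15, adjusted p = 0.00085 at 6 h and -2.60 ± 0.15, adjusted p = 1.9e-07 at 24 h. The 6 h value sits at the 2-fold limit, and leaving out any of 4 libraries (C57 0 h replicate 1, C57 6 h replicate 2, SPRET 0 h replicate 2 or SPRET 6 h replicate 1) brought it under that limit, to between -0.98 and -0.88.

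Ptgs1 was not past the test at 1 h in C57 (0.07 ± 0.10, adjusted p = 0.88). It rose from 40.4 and 42.02 TPM at 0 h to 104 and 101 TPM at 6 h (1.29 ± 0.10, adjusted p = 2.5e-06) and held 115 and 117 TPM at 24 h. In SPRET it peaked at 6 h, going from 31.5 and 42.02 TPM to 166 and 172 TPM (2.18 ± 0.10, adjusted p = 9.7e-09) and back to 76.7 and 76.6 TPM (-1.13 ± 0.10, adjusted p = 1.1e-05 for 24 h against 6 h). In C57 24 h was not below 6 h (0.18 ± 0.10, adjusted p = 0.21). The rise at 24 h in SPRET (1.06 ± 0.10, adjusted p = 5.9e-06) came to 0.85 without SPRET 0 h replicate 1.

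Ptges fell steadily. In C57 it measured 30.2 and 27.5 TPM at 0 h, 22.99 and 23.7 TPM at 1 h, 9.95 and 10.1 TPM at 6 h and 3.895 and 5.305 TPM at 24 h. In SPRET the values were 7.04 and 8.25 TPM, 4.76 and 5.23 TPM, 2.57 and 3.18 TPM and 1.92 and 1.26 TPM. The 24 h change was -2.42 ± 0.15, adjusted p = 6.6e-08 in C57 and -1.75 ± 0.15, adjusted p = 1.3e-06 in SPRET, and the 6 h fall was past 2-fold in both. SPRET held less Ptges than C57 at every time (-1.79 ± 0.15, adjusted p = 3.3e-07 at 0 h), whereas in the strain set, scaled separately, the basal difference was -0.52 ± 0.06, adjusted p = 4.3e-08. The difference between the sets was not tested.

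Alox5 was 6.64 and 6.004 TPM in C57 and 47.4 and 49.9 TPM in SPRET at 0 h (2.76 ± 0.11, adjusted p = 4e-10). By 24 h it fell to 0.758 and 0.471 TPM in C57 (-2.19 ± 0.11, adjusted p = 1.3e-08) and 6.89 and 6.94 TPM in SPRET (-2.65 ± 0.11, adjusted p = 2.6e-09). Treated SPRET cells at 24 h thus lay just above untreated C57 cells. At 6 h SPRET was already at 14.2 and 15.4 TPM (-1.65 ± 0.11, adjusted p = 2.1e-07 against 0 h). The 6 h fall in C57 (-1.02 ± 0.11, adjusted p = 3.1e-05) came to -0.96 and -0.95 without C57 0 h replicate 1 and without C57 6 h replicate 2. Alox5ap fell between 6 and 24 h in both strains, with a change of -1.27 in C57 (adjusted p = 2.4e-08) and -1.01 in SPRET (adjusted p = 4.5e-07). Here C57 and SPRET had like levels of Alox5ap at 0 h, 446 and 431 TPM and 400.1 and 397 TPM, whereas SPRET was lower in the strain set. In this set the summed neutrophil markers ran from 6.49 to 94.2 TPM, with the highest value in C57 at 0 h.

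Ltc4s peaked at 6 h in both strains. C57 went from 11.4 and 14.6 TPM at 0 h to 23.1 and 24.96 TPM at 6 h, under 2-fold (0.85 ± 0.10, adjusted p = 7.7e-05), and fell to 8.14 and 7.05 TPM by 24 h (-1.54 ± 0.10, adjusted p = 2.9e-07 against 6 h). SPRET rose from 11.4 and 11.5 TPM to 26.3 and 27.7 TPM (1.17 ± 0.10, adjusted p = 2.5e-06) and kept 20.1 and 19.3 TPM at 24 h. The 24 h response in SPRET minus that in C57 was 1.43 ± 0.14, adjusted p = 1.7e-05, of the same sign as in the strain set. The strains began at like levels here (-0.16 ± 0.10, adjusted p = 0.2), while in the strain set basal SPRET lay below C57 (-2.50 ± 0.15, adjusted p = 1.7e-13), and this gap between the sets was not tested. Lta4h was higher in SPRET at every time, by 1.51 at 0 h (adjusted p = 7.7e-11) and 1.87 at 24 h (adjusted p = 1.1e-11), with 222 and 211 TPM against 58.1 and 59.3 TPM at 24 h. Hpgds fell in SPRET from 16.7 and 17.3 TPM to 5.29 and 4.88 TPM at 24 h (-1.57 ± 0.09, adjusted p = 3e-08), with a change under 2-fold in C57 (-0.57 ± 0.09, adjusted p = 0.00019). Alox15 and Hpgd stayed at or below 0.302 and 0.194 TPM.

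The Egr2 set asked what loss of the transcription factor EGR2, which IL-4 induces, does to this response. Egr2 itself measured 21.3 to 100.7 TPM in the Egr2WT libraries and 0.854 to 7.05 TPM in the Egr2MKO libraries, and the groups did not overlap. Most of the IL-4 course of the members was present in both genotypes. In Egr2WT, 0, 2 and 4 of 10 members were called at 1, 6 and 24 h against 0 h, against 0.778%, 2.86% and 4.35% of all genes. In Egr2MKO, 1, 3 and 4 were called, against 0.902%, 3.7% and 4.83%. Between the genotypes, 0, 0, 1 and 1 members were called at 0, 1, 6 and 24 h, against 0.853%, 1.06%, 2.3% and 4.55%. Alox15 was among the 3 called at 6 h in Egr2MKO and was the 1 called between the genotypes at 6 h. It passed the filter only through Egr2MKO libraries where it was high. The response differed between genotypes for 0, 0 and 1 members at 1, 6 and 24 h, against 0.00828%, 0.207% and 1.9%. Each 0 is limma's count at 2-fold. By the adjusted p alone 1 member passed at 1 h in Egr2WT (1 at an unadjusted p under 0.05), 6 and 4 passed between genotypes at 0 and 1 h (6 and 6 unadjusted), and 0 and 1 passed for the response at 1 and 6 h (0 and 3 unadjusted).

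**Figure D3:**
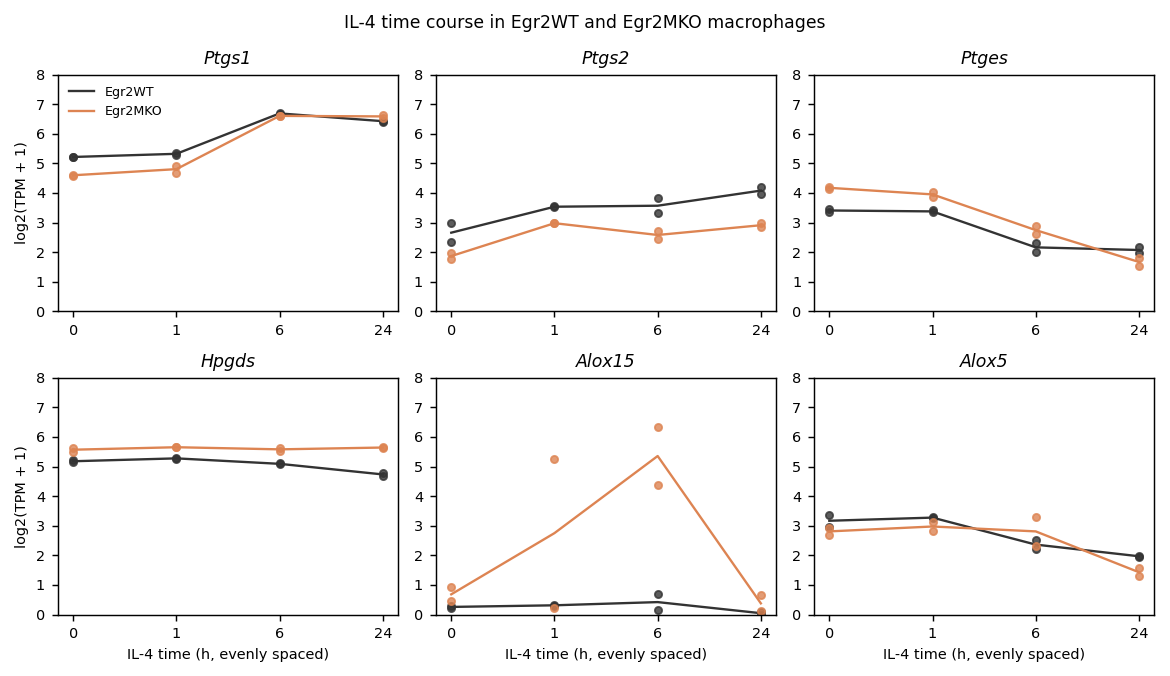
Levels of 6 members in Egr2WT and Egr2MKO over the IL-4 time course on the log2(TPM + 1) axis, with points for the 2 libraries of each group, lines through their means and the times 0, 1, 6 and 24 h evenly spaced. Ptgs2 lies lower and Hpgds higher in Egr2MKO, Ptges starts higher and ends lower there, and Alox15 is high in 3 Egr2MKO libraries only.

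Ptgs2 was lower in Egr2MKO. In Egr2WT it measured 4.05 and 6.88 TPM at 0 h, 10.7 and 10.5 TPM at 1 h, 13.1 and 8.95 TPM at 6 h and 17.5 and 14.5 TPM at 24 h. In Egr2MKO the values were 2.43 and 2.89 TPM, 6.84 and 6.92 TPM, 5.63 and 4.39 TPM and 6.13 and 6.92 TPM. The genotypes did not overlap at any of the 4 times, and the difference was called at 24 h (-1.17 ± 0.21, adjusted p = 0.0009). At 0 h it was -0.79 ± 0.21, adjusted p = 0.029 and at 6 h -0.99 ± 0.21, adjusted p = 0.0058. Both are under 2-fold on the log2(TPM + 1) scale, where the added 1 TPM weighs at these low levels. As ratios of means Ptgs2 was 2.06 times lower in Egr2MKO at 0 h and 2.20 times lower at 6 h. The median of all genes lay at 0.12 between the genotypes at 24 h. On the log2(TPM + 5) scale the 24 h difference was -0.86, under 2-fold. The rise with IL-4 at 24 h was called in both genotypes, 1.42 ± 0.21, adjusted p = 0.00023 in Egr2WT and 1.04 ± 0.21, adjusted p = 0.0024 in Egr2MKO, and the responses did not differ past the test (-0.38 ± 0.29, adjusted p = 0.48). The rise at 1 h in Egr2MKO (1.11 ± 0.21, adjusted p = 0.0081) had adjusted p = 0.056 to 0.085 without Egr2MKO 0 h replicate 1 or either 1 h library, and the 24 h rise came to 0.95 and 0.97 without Egr2MKO 0 h replicate 1 and without Egr2MKO 24 h replicate 2, and to 0.995 after median-ratio rescaling.

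Ptges was the member whose 24 h response differed between the genotypes. At 0 h it measured 10.01 and 9.23 TPM in Egr2WT and 17.4 and 16.7 TPM in Egr2MKO (0.77 ± 0.14, adjusted p = 0.0036). At 24 h it measured 3.56 and 2.88 TPM and 2.47 and 1.91 TPM (-0.40 ± 0.14, adjusted p = 0.04), so the order of the genotypes turned. The change over 24 h was -1.33 ± 0.14, adjusted p = 1.5e-05 in Egr2WT and -2.50 ± 0.14, adjusted p = 4.6e-08 in Egr2MKO. The response in Egr2MKO minus that in Egr2WT was -1.17 ± 0.20, adjusted p = 0.0023. On the log2(TPM + 5) scale it was -0.79, under 2-fold.

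Ptgs1 rose in both genotypes by 6 h. It went from 36.3 and 36.03 TPM to 102 and 102 TPM in Egr2WT (1.47 ± 0.07, adjusted p = 1.8e-08) and from 22.9 and 23.5 TPM to 96.7 and 95.8 TPM in Egr2MKO (2.01 ± 0.07, adjusted p = 1.1e-09). The lower start in Egr2MKO was under 2-fold (-0.62 ± 0.07, adjusted p = 0.00012), as was the larger 24 h response (0.78 ± 0.10, adjusted p = 0.00027). Hpgds was higher in Egr2MKO at every time by under 2-fold, with 26.4 and 24.9 TPM in Egr2WT and 48.6 and 49.3 TPM in Egr2MKO at 24 h (0.91 ± 0.06, adjusted p = 2e-07). Lta4h was lower at 24 h, 55.5 and 52.5 TPM in Egr2MKO against 79.02 and 77.5 TPM, again under 2-fold (-0.53 ± 0.05, adjusted p = 1e-05). Alox5 fell over 24 h in both genotypes (-1.20 ± 0.26, adjusted p = 0.0038 and -1.38 ± 0.26, adjusted p = 0.0016) and did not pass the test between them at any time. At 24 h both Egr2MKO libraries (1.46 and 1.96 TPM) lay below both Egr2WT libraries (2.88 and 2.95 TPM), with -0.54 ± 0.26, adjusted p = 0.12, and adjusted p = 0.024 in a fit without the 3 libraries with high Alox15 described below. The Egr2WT fall came to just under 2-fold without Egr2WT 0 h replicate 1. Alox5ap and Ltc4s were not called between the genotypes at any time, and Hpgd stayed at or below 1.98 TPM.

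Alox15 was high in 3 Egr2MKO libraries and near 0 in the rest. It measured 19.6 and 80.3 TPM in the 2 libraries of 6 h and 37.6 and 0.173 TPM in those of 1 h, so replicates of 1 h disagreed. All other libraries of the set were at or below 0.892 TPM. Alox15 thus passed the filter of 1 TPM in 2 libraries only through the 3 where it was high, and its calls below carry that limit. The 3 high values rest on 860 recovered reads in 1 h replicate 1, 257 in 6 h replicate 1 and 227 in 6 h replicate 2, the last in a library of 1777358 reads, the shallowest of the set. The 6 h difference between genotypes was called (4.93 ± 1.15, adjusted p = 0.01), but had adjusted p = 0.081 when the 2 groups alone were fitted, 0.081 without Egr2MKO 6 h replicate 2 and 0.054 without Egr2WT 6 h replicate 1. The rise from 0 h (4.67 ± 1.15, adjusted p = 0.0091) likewise had adjusted p = 0.075 without Egr2MKO 6 h replicate 2 and 0.061 without Egr2MKO 0 h replicate 2. A list of 8 genes known from resident peritoneal macrophages, chosen after these values were seen, moved with Alox15 in the Egr2 set, with all 8 reaching 1 TPM there. Its summed level was 59.0 TPM in Egr2MKO 1 h replicate 1, 26.0 TPM in 6 h replicate 1 and 180.5 TPM in 6 h replicate 2, against 2.96 to 6.12 TPM in the other 13 libraries. Among its genes, Prg4 measured 24.0, 7.42 and 51.4 TPM in those 3 libraries and Timd4 measured 4.65, 0.930 and 7.06 TPM, against at most 4.06 TPM of Prg4 in the other 13. Outside the Egr2 set, the summed list reached 74.8 TPM in SPRET at 1 h of the time course (replicate 1). It reached 31.9 TPM in SPRET after IL-4 in the strain set (replicate 3). Alox15 stayed at or below 0.302 and 0.028 TPM in those groups. Only 4 of the 8 list genes reached 1 TPM in each of those sets, so their sums are not a like comparison with the Egr2 set. The part of peritoneal macrophages in the Alox15 values was not tested. Leaving out the 3 libraries with high Alox15 removed both Egr2MKO libraries of 6 h, so the 6 h comparison of the genotypes could not be made. At 24 h Ptgs2 was still called between the genotypes, and Ptges was still the 1 member whose response differed.

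In F1 cells both alleles meet the same factors in the same nucleus, so the comparison asks how much of a difference between strains stays with the allele. Only reads that overlap a difference between the parental genomes tell the alleles apart. The deposited allele values were scaled one allele at a time and the C57 x SPRET table uses gene lengths that span introns, so values were compared only between alleles of a library. For C57 x SPRET all 10 members were tested, and 2 were called in basal cells (both higher from the C57 allele) and 0 after IL-4, against 7.39% and 4.29% of 12256 genes. The 0 is limma's count at 2-fold, and 2 members passed the adjusted p alone (4 at an unadjusted p under 0.05).

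**Figure D4:**
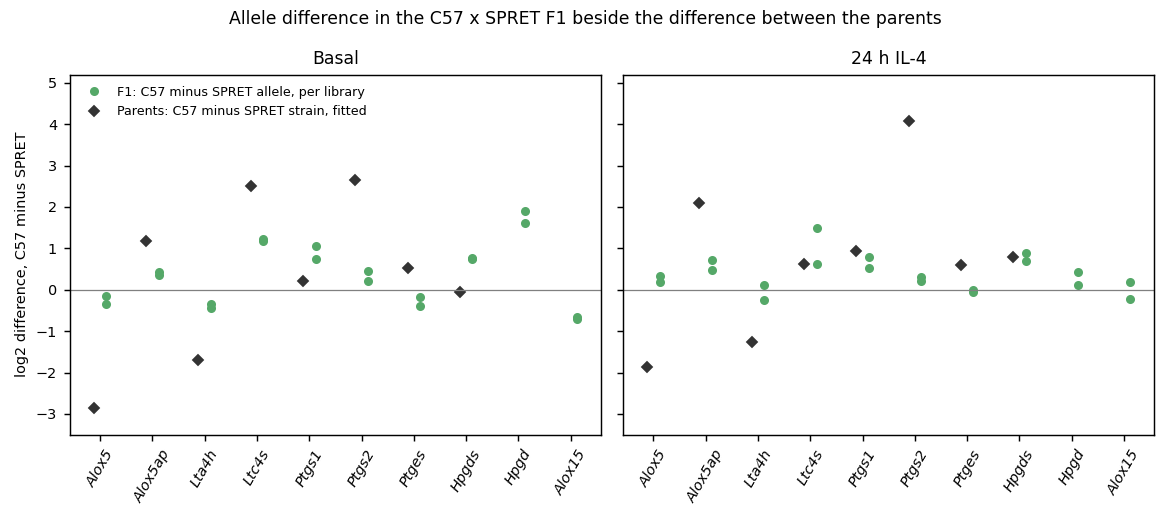
Allele differences of the 10 members in C57 x SPRET F1 cells, as log2 of the C57 allele value + 1 minus log2 of the SPRET allele value + 1, for each basal and IL-4 library, beside the difference between the parental strains where it was tested. The F1 points of Alox5, Ptgs2 and Lta4h lie near 0 while the parental differences do not. For Ptgs2 the allele values were too low for a difference as wide as the parents' to show.

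For Alox5 the SPRET parent exceeded C57 by 2.85 at basal state, whereas the F1 alleles measured 11.1 and 9.704 from C57 and 12.5 and 12.5 from SPRET (C57 minus SPRET -0.25 ± 0.10, adjusted p = 0.2). For Ptgs2 the parents differed by 2.66 basal and 4.08 after IL-4, and the F1 alleles by 0.33 ± 0.13, adjusted p = 0.17 and 0.26 ± 0.13, adjusted p = 0.27, at allele values of at most 1.39. At such low allele values the added 1 caps the difference, so a Ptgs2 gap as wide as the parents' could not have shown. For Lta4h the parents differed by -1.69 and the alleles by -0.39 ± 0.12, adjusted p = 0.11. In basal cells the allele difference of these 3 genes had the parents' sign but was not past the test. After IL-4 the parents differed by -1.88 for Alox5 and -1.27 for Lta4h. The Alox5 alleles then leaned the other way in both libraries, though not past the test (0.26 ± 0.10, adjusted p = 0.2), and the Lta4h alleles differed in sign between the libraries (-0.06 ± 0.12, adjusted p = 0.75). The parental differences are those of the strain set. They and the allele differences come from separate tables, so the gap between them was not tested.

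Ltc4s was called between the alleles in basal cells, a call that other settings did not keep. The C57 allele measured 33.7 and 38.8 and the SPRET allele 14.2 and 16.1 (1.20 ± 0.23, adjusted p = 0.047). The parents differed by 2.50 in the strain set but had like levels at 0 h of the time course. Hpgd, too low to test in the parents, measured 15.1 and 14.8 from the C57 allele and 3.27 and 4.18 from the SPRET allele (1.76 ± 0.14, adjusted p = 0.015). Both loci thus favoured the C57 allele. Both calls rest on the 2 basal libraries together: without either one, Ltc4s had adjusted p = 0.28, and Hpgd had 0.15 without replicate 1 and 0.12 without replicate 2. With the replicate number as a block the Ltc4s allele difference had adjusted p = 0.062, with no filter on low values 0.093 and with a pseudocount of 0.1 0.055. Ptgs1 and Hpgds leaned to the C57 allele by under 2-fold, at 0.90 ± 0.13, adjusted p = 0.028 and 0.76 ± 0.09, adjusted p = 0.021 in basal cells, although their parents differed little there (0.21 and -0.06). For no member did the allele difference change with IL-4 past the test (adjusted p = 0.46 to 0.97). Of all 12256 genes only 4 (0.0326%) were called there, and 3 members had an unadjusted limma p under 0.05. The largest change among members was that of Hpgd (-1.49 ± 0.20), at allele values of at most 0.474 after IL-4. Alox5ap leaned to C57 after IL-4 (0.60 ± 0.10, adjusted p = 0.049), where the parents differed by 2.11 in the strain set. In the time course the parents' means at 24 h of IL-4 were 140 TPM in C57 and 128 TPM in SPRET. Ptges did not lean after IL-4 (-0.03 ± 0.11, adjusted p = 0.9). In basal cells its alleles differed by -0.29 ± 0.11, adjusted p = 0.18, where the parents differed by 0.52. The Ptges allele values were at most 2.2, so the added 1 shrinks any difference.

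For C57 x NOD, 7 of the 10 members were listed at 0 in every allele column, among them Ptgs1 and Ptgs2, so nothing can be said of these 7 from this cross. None of the 3 tested members was called, against 0.249% of 5229 genes in basal cells and 0.268% after IL-4 (0 by limma's adjusted p alone, and 1 and 0 at an unadjusted p under 0.05). Lta4h measured 644 and 695 from the C57 allele and 635 and 817 from the NOD allele in basal cells (-0.11 ± 0.10, adjusted p = 0.82). Ptges measured 1.11 and 8.82 from the C57 allele and 0 and 2.304 from the NOD allele in basal cells (1.32 ± 0.31, adjusted p = 0.42). The C57 allele was higher in both libraries, and after IL-4 both alleles were listed at 0. The NOD parent exceeded C57 by 3.12 in the strain set. Allele values this low and uneven cannot show how much of that difference stays with the allele. Alox5 measured 14.4 and 28.6 and 12.1 and 11.9 (0.71 ± 0.66, adjusted p = 0.82).

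Other genes of the pathway (43 genes fixed as a list, 42 of them in the tables and 27 to 29 tested a set) were read for context. Of 27 tested, 3 rose and 3 fell with IL-4 in C57, 1 and 1 in BALB, 1 and 0 in NOD, 1 and 0 in PWK, and 3 and 0 in SPRET. Over all 11907 genes tested, 271 rose and 182 fell in C57, 151 and 97 in BALB, 87 and 55 in NOD, 183 and 65 in PWK, and 276 and 193 in SPRET. The list's median change lay between 0.00 and 0.08 in the 5 strains. The secreted phospholipase Pla2g5, which frees arachidonic acid, rose in C57 from a mean of 3.76 to 29.02 TPM (2.67 ± 0.13, adjusted p = 8.9e-15). Its mean in SPRET was 0.179 TPM after IL-4, and the response there minus that in C57 was -2.59 ± 0.18, adjusted p = 5e-11. Ltb4r1, the high-affinity leukotriene B4 receptor, rose from 1.86 to 8.85 TPM (1.79 ± 0.15, adjusted p = 2.6e-10) and was called in BALB, PWK and SPRET as well. Abcc1, which exports leukotriene C4, fell from 43.9 to 18.2 TPM (-1.23 ± 0.09, adjusted p = 1.7e-11). Receptors and exporters were thus among the genes that moved, alongside the synthesis enzymes above.

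Between strains at basal state, 0 of the 27 were higher and 11 lower in NOD than in C57, 1 and 7 in PWK, 6 and 5 in SPRET, and 0 and 2 in BALB. Over all 11907 genes tested, 613 were higher and 1398 lower in NOD, 535 and 1049 in PWK, 1022 and 1134 in SPRET, and 315 and 258 in BALB. The list's median difference was -0.62 in NOD and -0.41 in PWK, where that of all genes was -0.30 and -0.16. In NOD the lower genes with the largest change were Cysltr1, a receptor for cysteinyl leukotrienes (0.394 against 8.18 TPM), and the prostaglandin E2 receptors Ptger4 (0.684 against 7.85 TPM) and Ptger1 (3.06 against 18.6 TPM). In NOD, where Ptgs2 and Ptges were highest, Ptger4 and Ptger1 were thus below C57 (-2.39 ± 0.09, adjusted p = 2.7e-17 for Ptger4). Ptger1 was also below C57 in basal BALB (4.51 against 18.6 TPM, -1.81 ± 0.16, adjusted p = 1.8e-09), where Ptges did not differ from C57 beyond its spread. A link between the receptors and the synthesis genes was not tested. In SPRET the largest excess over C57 was that of Ptgds, the other prostaglandin D2 synthase (18.8 against 0.0277 TPM, 4.27 ± 0.07, adjusted p = 1.8e-25). It rose further with IL-4 there, to 92.3 TPM (2.24 ± 0.07, adjusted p = 6.1e-19). Pla2g2e, another secreted phospholipase, was the gene furthest below C57 in SPRET, at 0.134 against 17.8 TPM (-4.05 ± 0.10, adjusted p = 1.2e-21).

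In the time course, 1, 2 and 4 of 29 tested list genes rose and 0, 0 and 5 fell in C57 at 1, 6 and 24 h, and 1, 2 and 2 rose and 0, 0 and 4 fell in SPRET. Over all 12088 genes tested, 85, 188 and 344 rose and 21, 69 and 352 fell in C57. In SPRET 171, 340 and 317 rose and 57, 212 and 362 fell. The list gene that rose at 1 h in both strains was Ptger4, from 12.5 to 31.4 TPM in C57 (1.26 ± 0.09, adjusted p = 2e-06), the hour at which Ptgs2 rose there. By 24 h it fell below its 0 h level in C57, to 3.76 TPM (-1.51 ± 0.09, adjusted p = 5.5e-08). In the Egr2 set, 0, 2 and 3 of 27 rose and 0, 0 and 2 fell in Egr2WT, and 1, 3 and 4 rose and 0, 0 and 3 fell in Egr2MKO. Over all 12079 genes tested, 73, 240 and 279 rose and 21, 105 and 246 fell in Egr2WT. In Egr2MKO 83, 286 and 333 rose and 26, 161 and 250 fell. Between the genotypes at 24 h, 2 list genes were higher in Egr2MKO and 2 lower, against 292 and 258 of all genes. Ptger4 was higher, at 26.7 against 8.04 TPM (1.62 ± 0.08, adjusted p = 2.3e-08), and its 24 h response differed too (1.12 ± 0.11, adjusted p = 6.6e-05). The prostacyclin receptor Ptgir was lower, at 30.9 against 85.8 TPM (-1.44 ± 0.06, adjusted p = 8.3e-09). The prostacyclin synthase Ptgis, called higher in Egr2MKO at 6 h, was above 1 TPM only in the 3 libraries with high Alox15, at 4.34, 2.10 and 9.76 TPM.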

How the data were processed

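The 10 genes, the 43-gene pathway list and the marker lists were chosen with earlier results of these data known. The authors aligned strand-marked polyA reads with STAR, and for other strains moved them to mm10 positions with MMARGE. They deposited HOMER tables of TPM over exons for 61 libraries and of allele values for 8 F1 libraries, where reads were mapped to both parental genomes. The TPM sums differ between libraries, and about 89% to 93% of low values were whole reads within 0.1. The columns of the authors' own DESeq2 comparisons (fold changes and p-values) were not used, nor were 8 sample columns that match no label. Steps in the TPM values gave the read depth.

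limma 3.58.1 (R 4.3.3) was fitted to log2(TPM + 1) with 1 mean per group, all libraries of a set in 1 model and a mean-variance trend, and p-values were adjusted by Benjamini-Hochberg over all genes that reached 1 TPM in 2 libraries or more. For F1 cells, the log2 ratio of the alleles in each library was tested, where the alleles summed to at least 1 in at least 2 libraries. The scripts were tested on simulated data. All members were named, and of the list at most 4 genes per comparison, by largest change among the called. The genes most like a member were ranked by Pearson's r over 10 group means. Alternatives changed the pseudocount, filter, scaling, threshold, fit or libraries. Replicate numbers did not pair the libraries. Tables were normalized separately and tested separately.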

Additional observations from a re-analysis of the deposited data

Results flagged for a closer look

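For 13 results among 3 genes, the response to IL-4 differed between strains or genotypes in a direct test of the difference of responses (limma, adjusted p under 0.05 and over 2-fold). For Ptgs2 the response minus that in C57 was -1.17 in BALB, -2.01 in NOD and -1.42 in SPRET. In the time course it was -2.02, -1.0 and -2.60 in SPRET at 1, 6 and 24 h. In the strain set C57 was the one strain in which Ptgs2 rose past 2-fold.

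For Ltc4s the response minus that in C57 was 1.10 in BALB, 1.83 in PWK and 1.87 in SPRET, and 1.43 in SPRET at 24 h of the time course. For Ptges it was 1.36 in NOD and 1.51 in PWK, and in Egr2MKO minus Egr2WT at 24 h it was -1.17. Within a set, all strain comparisons share the C57 libraries. No group held 4 or more libraries, so no library was tested as standing apart from its group.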

How the results depend on the processing

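None of the 109 called differences of members reversed under any alternative run. The other pathway genes and the differences not called are not covered by these counts. By adjusted p alone, without the 2-fold limit, the calls among members were 30 for IL-4 in the 5 strains (15 with it), 27 between strains basal (15), 24 after IL-4 (11) and 25 for the responses (8). They were 30 for IL-4 in the time course (19), 11 for its responses (4), 26 for IL-4 in the Egr2 set (14), 19 for Egr2MKO against Egr2WT (2), 5 for the responses there (1) and 6 for the C57 and SPRET alleles (2). With a pseudocount of 5 there were 8 calls for IL-4 in the Egr2 set, 1 for Egr2MKO against Egr2WT and 0 for the responses. Of these 109, 29 fell under the threshold there, 4 of 107 under median-ratio rescaling and 4 of 107 under quantile normalization. Fitting only the groups compared left 1 call for Egr2MKO against Egr2WT. Leaving out the 3 libraries with high Alox15, an alternative chosen after seeing the data, kept the call of Ptgs2 at 24 h. Both Egr2MKO libraries of 6 h were among the 3, so the 6 h comparison could not be made. For the C57 and SPRET alleles 1 call was left with a pseudocount of 0.1, with no filter and with the replicate block (Ltc4s lost, adjusted p = 0.055, 0.093 and 0.062). The replicate block changed no other of the 109 called differences of members. Same-numbered libraries did not deviate together, with mean correlations of residuals from -0.0046 to 0.030.

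Leaving out 1 library at a time gave 13 to 17 calls for IL-4 in the strains, 1 to 3 for Egr2MKO against Egr2WT, 1 to 2 for the responses there, 12 to 18 for IL-4 in the Egr2 set, 3 to 5 for the responses in the time course and 0 to 3 for the C57 and SPRET alleles. Of 2357 differences refitted so, 30 fell under the threshold and the rest kept their call. Depth limits Ptgs2 in SPRET (at most 25 reads) and Alox5 in NOD (at most 8), and single libraries decide the calls of Alox15.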
